A study of Mus musculus with 5 samples.

Results

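Mmel1, Slc12a8, Rab27a, Pik3c2g, Parvb, Mpzl2, Ppp1r14a and Parm1 stood high in wild-type granulosa cells 24 h after an ovulatory hormone dose. All 8 genes were far lower in cells from a conditional knockout of C/EBPα and C/EBPβ. They are represented by 16 of the 45101 probe sets of the arrays, and by 8 of 18194 genes, each probe set being annotated with 1 of these symbols alone. The genes were picked from these same arrays, for a large rise between 8 h and 24 h in wild type or a large knockout deficit at 24 h, so both of these measures are given as descriptions and neither was tested. No numerical limit defined large. In order of the deficit at 24 h, Parm1 was the last of the genes with a log2 difference of -2.34, and its neighbours in that order, both outside the set, were Sc5d at -2.34 just above and Pla1a at -2.31 just below.

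Granulosa cells line the ovarian follicle. The midcycle surge of luteinizing hormone makes them stop dividing, supports release of the oocyte and turns them into the progesterone-secreting cells of the corpus luteum, a change called luteinization. C/EBPα and C/EBPβ are basic leucine zipper transcription factors that this hormone signal induces or uses in granulosa cells, and both were deleted in the knockout.

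The knockout arrays came from mice whose Cebpa and Cebpb alleles were all floxed (fl/fl) and which carried Cyp19-cre, sampled 4, 8 and 24 h after human chorionic gonadotropin (hCG), and the wild-type arrays from mice sampled 8 and 24 h after it. Every mouse had first received equine chorionic gonadotropin (eCG) for 48 h, which grows follicles, and hCG acts on the luteinizing hormone receptor. Ages were 23 days at 4 and 8 h and 24 days at 24 h in both genotypes. Cyp19-cre expresses the recombinase under control elements of the aromatase gene, which is active in granulosa cells, so other ovarian cells keep both C/EBP genes. There was 1 array for each of the 5 groups, and the sources used here do not say whether an array held RNA of 1 or several animals.

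Since each group is a single array, no difference has a replicate error, a test or a p-value. A gene was called higher or lower when its intensities differed at least 2-fold and the higher of the pair reached a floor of 22, the 40th percentile of all values. A fold against a value below the floor was computed from the floor itself and is written as at least. Between different probe sets of the same gene, log2 differences varied with an SD of 0.39 for knockout minus wild type at 24 h and 0.26 at 8 h. This SD measures disagreement between probe sets on the same arrays and holds no error between replicate arrays or animals. The median intensity was 31 or 32 on 4 of the arrays and 54 on the knockout array at 4 h. The 4 h intensities are thus on another scale and are printed for completeness, and only their percentiles within the array are set beside other arrays. Granulosa markers were present throughout, with 8 of 10 on the array under their own symbol and none of them under the floor. Their summed intensities were 30659 in the knockout and 29838 in wild type at 8 h, then 36027 in the knockout and 32927 in wild type at 24 h. Inha was the largest part of each of these sums. Of the 8, Fst was lower in the knockout at 8 h, at 2358 in the knockout and 5049 in wild type, and none was called at 24 h. Cebpa was 19 in the knockout and 685 in wild type at 8 h, then 38 in the knockout and 352 in wild type at 24 h. Cebpb was 1127 in the knockout and 7436 in wild type at 8 h, then 85 in the knockout and 3976 in wild type at 24 h. The Cebpb signal was thus reduced in the knockout at 8 h but stayed well above the floor, and the reason was not tested.

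Markers of other cells differed between the same arrays. At 8 h, 11 of 12 stroma and smooth muscle markers, all 10 endothelial markers and 3 of 5 theca markers above the floor were lower in the knockout, and the summed intensity of the stroma and smooth muscle list was 3362 in the knockout and 15467 in wild type. At 24 h, 3 of 11 stroma and smooth muscle markers, 3 of 9 endothelial markers and 3 of 8 leukocyte markers above the floor were lower and none was higher, with stroma and smooth muscle sums of 5200 in the knockout and 8736 in wild type. Endothelial sums were 566 in the knockout and 2002 in wild type at 8 h, then 612 in the knockout and 1271 in wild type at 24 h. The endothelial markers under the floor were Pecam1, Tek and Tie1 in the knockout at 8 h, Pecam1 and Tie1 in the knockout at 24 h, and Tie1 in wild type at 24 h. Of 8 leukocyte markers above the floor at 8 h, C1qa and Lyz2 were lower in the knockout. Cd52 was higher, at 192 in the knockout and 69 in wild type. Lyz2 read 203 in the knockout and 565 in wild type at 8 h. Leukocyte sums were 782 in the knockout and 1220 in wild type at 8 h, with Itgam under the floor on all 5 arrays. At 24 h they were 1124 in the knockout and 1820 in wild type. Lyz2 was the largest part of both 24 h sums, at 413 in the knockout and 943 in wild type. Of the 8 leukocyte markers above the floor at 24 h, 6 lay below wild type in the knockout and 2 above it. The part of these cells in the differences below was not tested, and in tissue RNA fewer cells of a type and less RNA per cell cannot be told apart.

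Because the genes were chosen for a shared behaviour, the sequences around their start sites were read from RefSeq (GRCm38.p6), 250 bases before and 50 after each start. Windows were found for 7 of the 8 genes, 11 in all. They were searched on both strands for the C/EBP site TTGCNNAA (reverse complement TTNNGCAA), the C/EBP-ATF composite site TTGCATCA (TGATGCAA), the palindromic cAMP response element TGACGTCA and the NR5A site CAAGGNCA (TGNCCTTG), which binds SF-1 and LRH-1. Pik3c2g alone had matches, and both of its windows are shown with the matched bases in capitals. Mmel1, with the largest deficit at 24 h, and Parm1, with the different time course described below, are shown for contrast and hold no match.
Pik3c2g, chr6:139613822-139614121, plus strand: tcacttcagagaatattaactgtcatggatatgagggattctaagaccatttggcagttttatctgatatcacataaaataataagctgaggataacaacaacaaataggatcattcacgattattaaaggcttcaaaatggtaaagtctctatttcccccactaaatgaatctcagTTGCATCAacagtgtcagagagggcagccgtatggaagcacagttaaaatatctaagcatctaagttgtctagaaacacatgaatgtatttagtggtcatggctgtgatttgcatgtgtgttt
Pik3c2g, chr6:139841195-139841494, plus strand: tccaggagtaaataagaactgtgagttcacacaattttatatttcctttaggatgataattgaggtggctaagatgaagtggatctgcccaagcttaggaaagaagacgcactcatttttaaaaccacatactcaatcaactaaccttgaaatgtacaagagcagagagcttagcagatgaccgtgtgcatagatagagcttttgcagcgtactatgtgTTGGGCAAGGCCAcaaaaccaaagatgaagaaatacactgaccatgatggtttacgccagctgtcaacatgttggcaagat
Mmel1, chr4:154869335-154869634, plus strand: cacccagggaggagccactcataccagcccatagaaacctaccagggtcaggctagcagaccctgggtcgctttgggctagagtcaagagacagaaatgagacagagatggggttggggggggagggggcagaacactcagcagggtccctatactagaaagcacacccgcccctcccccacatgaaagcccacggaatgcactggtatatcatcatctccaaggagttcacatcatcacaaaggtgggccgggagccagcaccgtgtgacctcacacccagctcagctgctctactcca
Parm1, chr5:91517450-91517749, plus strand: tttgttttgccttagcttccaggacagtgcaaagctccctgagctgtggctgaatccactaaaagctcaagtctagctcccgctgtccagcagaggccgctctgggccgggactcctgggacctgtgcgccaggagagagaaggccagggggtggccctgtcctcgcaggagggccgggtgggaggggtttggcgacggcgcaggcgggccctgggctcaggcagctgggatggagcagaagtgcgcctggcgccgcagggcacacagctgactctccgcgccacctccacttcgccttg
The first Pik3c2g window held the composite site at -73 from the start. The second held a C/EBP match, TTGGGCAA, at -31, which overlapped an NR5A match, CAAGGCCA, at -26. Of all 32851 windows, 10.8% held a C/EBP match, 0.895% the composite site, 1.79% the cAMP element and 6.71% an NR5A match. Among the 11 windows of these genes, 1 held each of the C/EBP, composite and NR5A letters and 0 held the cAMP element. These letter matches describe the windows and say nothing about binding. GC content of the 11 windows ran from 36% in Pik3c2g to 71.3% in Ppp1r14a, with a median of 55.3%, against 52.7% over all windows.

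At 24 h all 8 genes were lower in the knockout by at least 2-fold and none was higher, where 3.92% of the 13052 genes above the floor were lower and 3.13% higher. The choice of the genes fixed this count. Their median log2 difference was -3.89 as measured and -3.73 with low values set to the floor, against 0.05 over all genes above the floor. Of their 16 probe sets, 14 reached the floor at 24 h and 13 of these were lower, the exception being the second Parvb probe set. The wild-type array at 24 h enters both the genotype difference at 24 h and the wild-type change over time, so a high value there enlarges both.

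**Figure D1:**
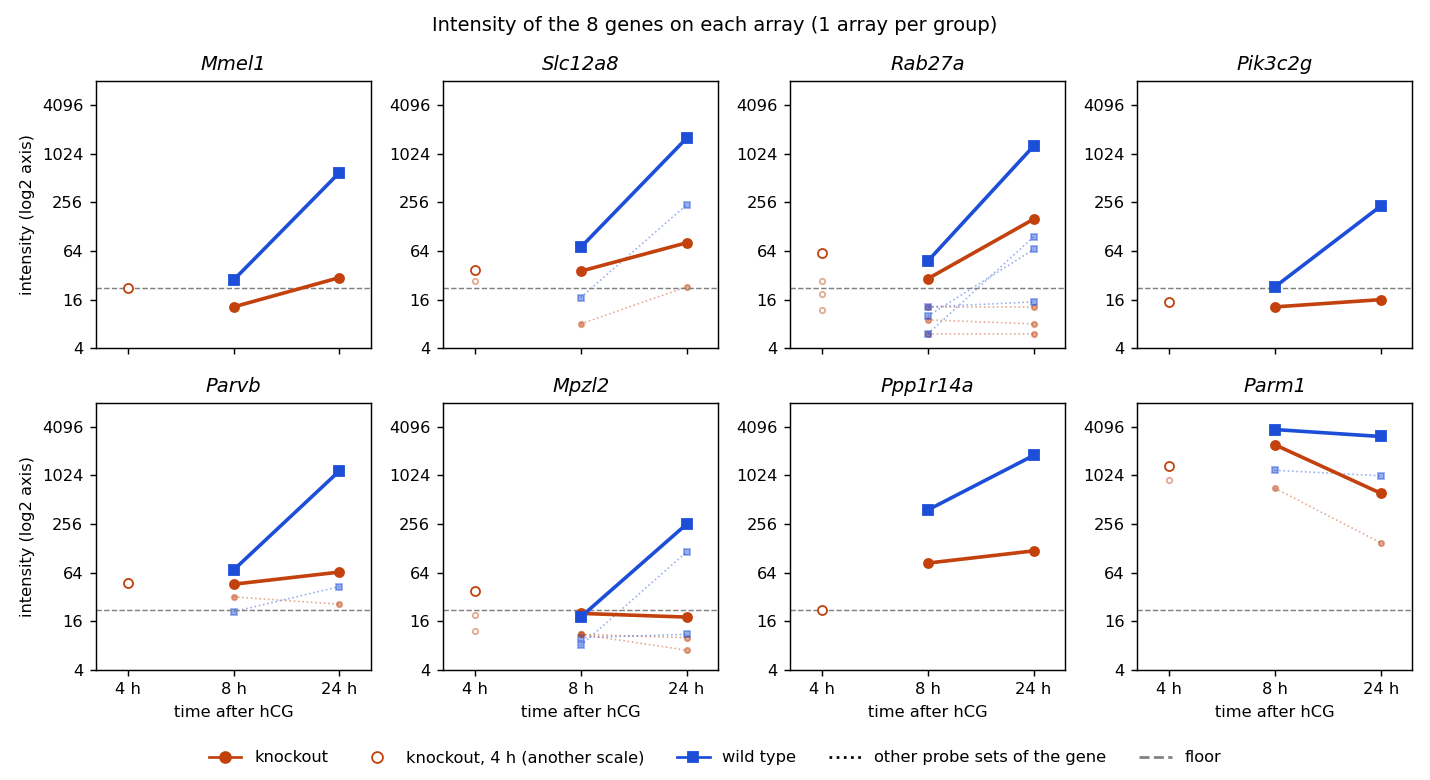
Intensity (log2 axis) of each gene against time after hCG, with the knockout as circles and wild type as squares, 1 array per point. The 4 h knockout array is an open circle with no line, because its scale differs. Solid lines are the probe set that represents the gene, dotted lines its other probe sets, and the dashed line is the floor of 22. In 7 genes the wild-type line climbs away from the knockout line by 24 h, and in Parm1 the knockout line drops.

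Mmel1 encodes a membrane metallopeptidase related to neprilysin, which cleaves small peptides outside the cell. Its intensity was 22, 13 and 30 in the knockout at 4, 8 and 24 h, and 28 and 601 in wild type at 8 and 24 h. It exceeded 30 in wild type at 24 h only. The deficit at 24 h was 20.0-fold, the sixth largest of all genes above the floor (rank 6 of 13052). Slc12a8 encodes a solute carrier of the cation-chloride cotransporter family. Its main probe set read 37, 36 and 81 in the knockout at 4, 8 and 24 h, and 71 and 1600 in wild type at 8 and 24 h. A second probe set gave 23 in the knockout and 239 in wild type at 24 h, so both showed the deficit, 19.8-fold and 10.4-fold.

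Rab27a encodes a small GTPase that docks secretory vesicles at the plasma membrane. It had the third largest wild-type rise of all genes above the floor (rank 3 of 13054). Both the wild-type rise and the rise in the knockout were read from its main probe set. The main probe set read 61, 29 and 159 in the knockout at 4, 8 and 24 h, and 48 and 1281 in wild type at 8 and 24 h, an 8.06-fold deficit at 24 h. Other probe sets gave 6 in the knockout and 96 in wild type, and 8 in the knockout and 67 in wild type at 24 h, at least 4.36-fold and at least 3.05-fold lower. The last of its 4 probe sets was under the floor on the 8 h and 24 h arrays of both genotypes and gives no comparison. Averaged over all 4 probe sets, 3 of them under the floor in the knockout at 8 and 24 h, the wild-type log2 rise was 2.92 in place of 4.74 and the knockout change 0.57 in place of 2.45. Rab27a is also used by leukocytes. Their markers summed to 1124 in the knockout and 1820 in wild type at 24 h, with Lyz2 the largest part of both sums. The part of leukocytes in the Rab27a deficit was not tested.

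Pik3c2g encodes the gamma form of class II phosphoinositide 3-kinase, a lipid kinase. It read 15, 13 and 16 in the knockout at 4, 8 and 24 h, under the floor each time, and 23 and 231 in wild type at 8 and 24 h. Its deficit at 24 h was at least 10.5-fold. Mpzl2 encodes a homophilic cell adhesion protein of the immunoglobulin superfamily. It read 38, 20 and 18 in the knockout at 4, 8 and 24 h, and 18 and 255 in wild type at 8 and 24 h. Within the knockout arrays this was the 42.8th percentile at 4 h, the 41.6th at 8 h and the 38.8th at 24 h. The deficit was at least 11.6-fold at 24 h, and at least 5.23-fold on another probe set, with 7 in the knockout and 115 in wild type. A remaining Mpzl2 probe set was under the floor on all 5 arrays. In both genes, over the 8 and 24 h arrays, the wild-type array at 24 h was the one well above the floor, and both knockout arrays were under it.

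Parvb encodes beta-parvin, which links integrin-linked kinase to actin at cell adhesions. The main probe set read 47, 46 and 65 in the knockout at 4, 8 and 24 h, and 69 and 1169 in wild type at 8 and 24 h, a log2 difference of -4.17 at 24 h. The second probe set gave 26 in the knockout and 43 in wild type at 24 h, a 1.65-fold difference that missed the threshold. The probe sets had the same direction at 24 h but not the same size, and their mean difference was -2.45.

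Ppp1r14a encodes CPI-17, an inhibitor of myosin phosphatase that smooth muscle uses to sustain contraction. It read 22, 84 and 119 in the knockout at 4, 8 and 24 h, and 382 and 1814 in wild type at 8 and 24 h. It was the gene of the set with the largest deficit at 8 h, 4.55-fold, and the deficit was 15.2-fold at 24 h. Smooth muscle and stroma markers were lower on the same knockout array at 8 h, as given above, and their summed level at 24 h was below wild type by a smaller ratio than at 8 h while the Ppp1r14a ratio was larger. The part of smooth muscle in its level was not tested. Within the knockout it stood at the 26.3rd percentile of its array at 4 h, the 64.9th at 8 h and the 69.5th at 24 h, and in wild type at the 84.7th at 8 h and the 96.6th at 24 h.

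Parm1 encodes a mucin-like membrane glycoprotein known from rat prostate, where androgen regulates it. It read 1335, 2463 and 617 in the knockout at 4, 8 and 24 h, and 3798 and 3115 in wild type at 8 and 24 h. A second probe set gave 897, 713 and 150 in the knockout, and 1188 and 1015 in wild type. In wild type the log2 difference between 24 and 8 h was -0.29, short of the threshold, and in the knockout Parm1 was lower at 24 h than at 8 h by 3.99-fold on the main probe set and 4.75-fold on the second. It was the only one of the 8 whose deficit came with a decline in the knockout and no rise in wild type.

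Between 8 and 24 h in wild type, 7 of the 8 genes rose, and none was lower, where 5.55% of 13054 genes above the floor rose and 6.45% were lower, again a count that the choice of genes fixed. The log2 rise was 4.74 for Rab27a, 4.49 for Slc12a8, 4.42 for Mmel1, 4.08 for Parvb, 3.33 for Pik3c2g and 2.25 for Ppp1r14a. Mpzl2, under the floor in wild type at 8 h, rose at least 11.6-fold. The knockout change over the same hours uses the knockout array at 8 h, which the choice did not use, together with the knockout array at 24 h, which it did. Mmel1, Slc12a8 and Rab27a were higher at 24 h than at 8 h in the knockout, 3 of the 6 genes above the floor there, where 6.85% of 12999 genes were higher. Parm1 was lower, where 5.26% were. Rab27a rose by 2.45 on the log2 scale in the knockout, Slc12a8 by 1.17 and Mmel1, from a value under the floor, at least 1.36-fold. The Rab27a rise rests on 1 probe set, and averaged over all 4 the change was 0.57, below the threshold. Parvb and Ppp1r14a differed by 0.50 each, short of the threshold, and Pik3c2g and Mpzl2 were under the floor at both times.

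**Figure D2:**
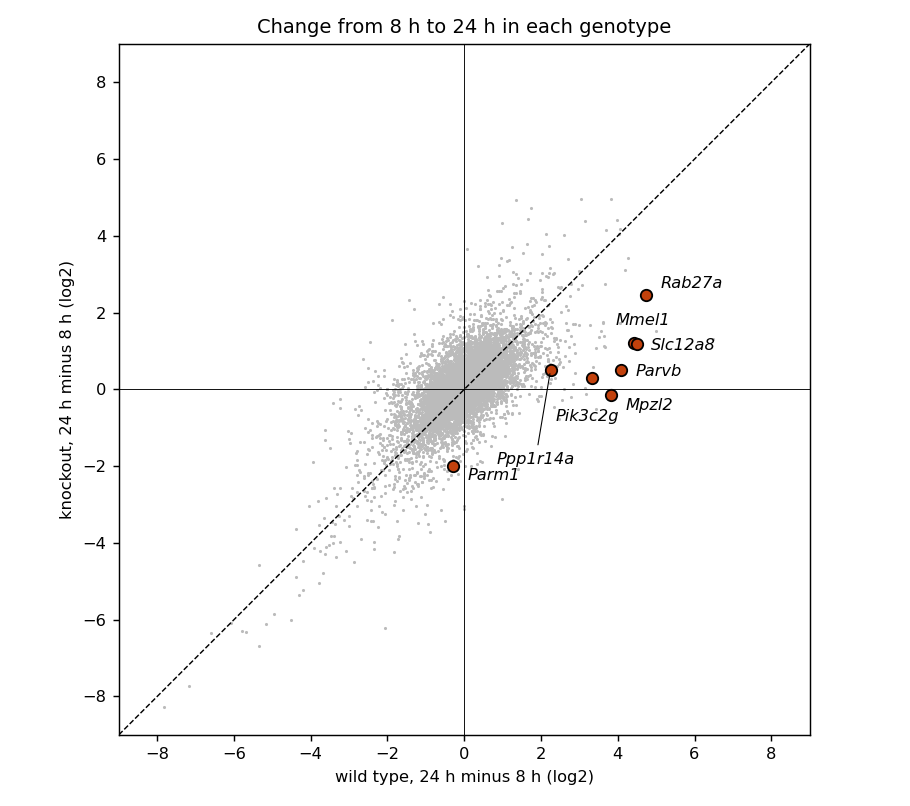
Log2 change from 8 h to 24 h in the knockout (vertical axis) against the same change in wild type (horizontal axis) for every gene with a value at or above the floor on any of the 4 arrays (grey) and the 8 genes (large points), all as measured, with the dashed line marking equal change. All 8 genes lie below the line, Rab27a highest at 2.45 in the knockout and 4.74 in wild type, and Parm1 apart from the rest, with a lower value at 24 h in the knockout and -0.29 in wild type. The choice of the genes favoured places below the line.

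The knockout change minus the wild-type change was -3.58 on the log2 scale for Parvb, -3.32 for Slc12a8 and -2.28 for Rab27a, with both genotypes above the floor at each time. It was -1.75 for Ppp1r14a and -1.71 for Parm1. It was -3.98 for Mmel1, -3.33 for Pik3c2g and -3.53 for Mpzl2 with low values set to the floor. Of the arrays in these values, the choice of the genes used all but the knockout array at 8 h. Values below 0 were thus favoured by the choice and are descriptions.

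At 8 h the genotype difference was smaller than at 24 h, which the choice of the genes on 24 h values favoured. Mmel1, Pik3c2g and Mpzl2 read 28, 23 and 18 in wild type at 8 h. For these genes the floor of 22 also limits the deficit that can be seen at 8 h. The knockout array at 8 h took no part in the choice of the genes, while the wild-type array at 8 h did. Mpzl2 was under the floor in both genotypes, which leaves 7 genes. Of these, 2 were called lower in the knockout, Ppp1r14a at 84 in the knockout and 382 in wild type, and Mmel1 at 13 in the knockout and 28 in wild type, at least 1.27-fold, and none was called higher, where 4.05% of 12924 genes were called lower and 1.58% higher. Mmel1 rests on values next to the floor, and its difference was -0.35 once low values were set to the floor. Slc12a8, at 36 in the knockout and 71 in wild type, was 1.97-fold lower and just missed the threshold. Pik3c2g, at 13 in the knockout and 23 in wild type, was at least 1.05-fold lower, a log2 difference of -0.06 with low values set to the floor. The other differences were -0.73 for Rab27a, -0.62 for Parm1 and -0.58 for Parvb. All 7 lay below 0, where 50.7% of all genes above the floor did. Mmel1 and Pik3c2g reached the floor in wild type only, which fixed their sign, so the shared direction is a description. Mpzl2, left out by the floor, went the other way at 0.15. The median of the 7 was -0.82 as measured, against -0.01 over all genes above the floor, and -0.62 with low values set to the floor. The direction was not shared by every probe set, since the second Parvb probe set gave 32 in the knockout and 21 in wild type, and the mean over both Parvb probe sets was 0.01.

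**Figure D3:**
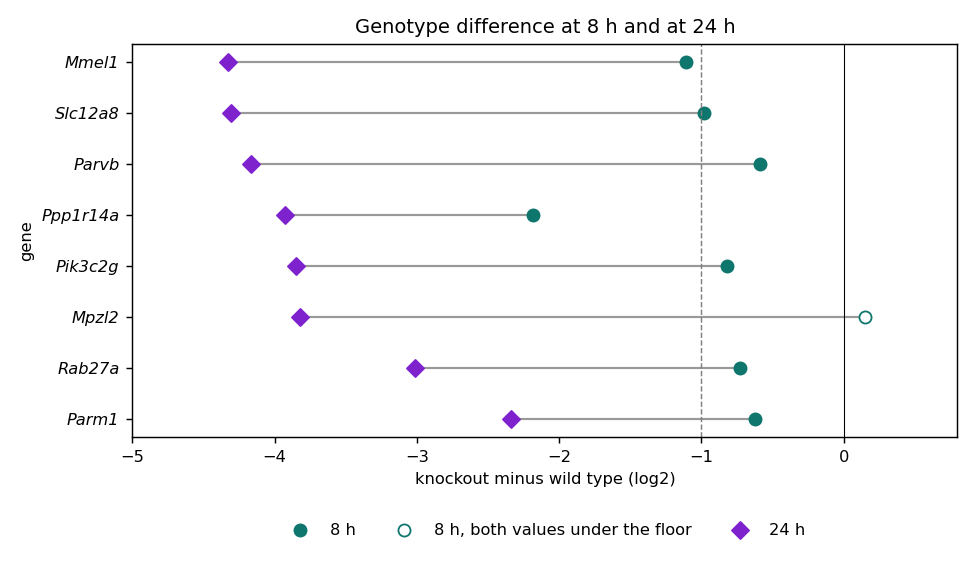
Knockout minus wild type (log2, horizontal axis) for the probe set representing each of the 8 genes, at 8 h (circles) and 24 h (diamonds), all as measured, with the dashed line at the 2-fold threshold. Every diamond lies left of the threshold, from -4.32 for Mmel1 to -2.34 for Parm1. At 8 h only Ppp1r14a at -2.19 and Mmel1 at -1.11 do so, and the open circle of Mpzl2 rests on values under the floor.

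The knockout array at 4 h has no wild-type partner here. Parm1 was already high on it, at the 91.5th percentile of all probe sets, against the 97.6th in the knockout at 8 h and the 90.0th at 24 h. The other 7 genes stood between the 9.21st percentile, for Pik3c2g, and the 52.3rd, for Rab27a. In wild type at 24 h the same 7 stood between the 78.7th percentile, for Pik3c2g, and the 96.6th, for Ppp1r14a.

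The 8 genes fell into closely similar time courses and outlying ones. Distances were taken between log2 profiles over the 4 arrays at 8 and 24 h, each centred on its mean and with low values set to the floor. Pik3c2g and Mpzl2 were the closest pair at 0.15, and Mmel1 and Parvb next at 0.25. Rab27a and Parm1 were the farthest apart at 4.76. Parm1 lay 3.47 from the median profile of the 8 genes, Rab27a 1.57, Ppp1r14a 1.40 and the other 5 between 0.29 and 0.82. Profiles of genes at the floor on several arrays are alike in part because the floor sets those values.

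Outside the set, the 10 genes nearest the median profile were D630023F18Rik, 1110064A23Rik, Mmd2, Slc11a1, Kcnk3, Tlcd4, Hp, Pla2g5, Ssu2 and Aif1l, at distances of 0.45 to 1.03 over these 4 arrays. D630023F18Rik read 12 in the knockout and 27 in wild type at 8 h, then 40 in the knockout and 452 in wild type at 24 h. Kcnk3, a potassium leak channel, read 152 in the knockout and 1255 in wild type at 24 h, and Mmd2 134 in the knockout and 1213 in wild type. Slc11a1, a metal transporter of macrophages, read 38 in the knockout and 499 in wild type at 24 h. D630023F18Rik was also the nearest gene to Mmel1, Slc12a8 and Parvb, and 1110064A23Rik to Pik3c2g and Mpzl2. Rab27a was nearest to Mfsd4a, at 191 in the knockout and 805 in wild type at 24 h. Ppp1r14a was nearest to Abcb1b, a multidrug export pump, at 100 in the knockout and 687 in wild type at 8 h, then 193 in the knockout and 1797 in wild type at 24 h. Parm1 was nearest to Emb, which encodes the adhesion protein embigin, at 1052 in the knockout and 1315 in wild type at 8 h, then 226 in the knockout and 1030 in wild type at 24 h, a distance of 0.28.

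**Figure D4:**
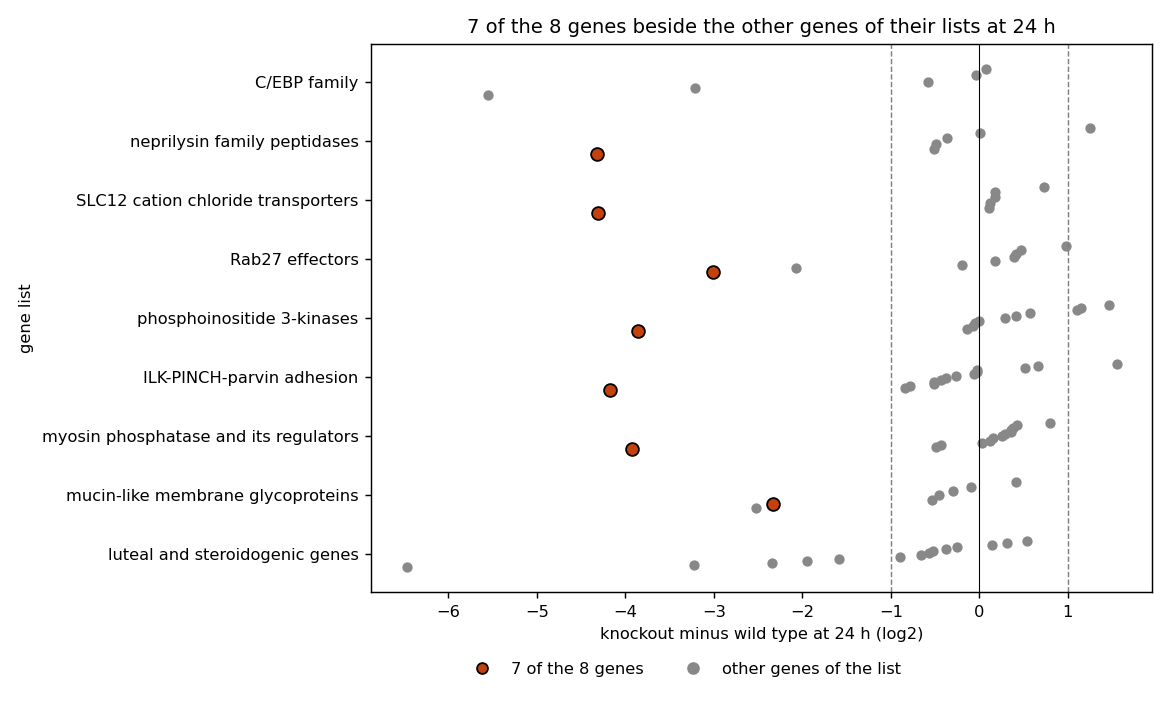
Knockout minus wild type at 24 h (log2, horizontal axis) for each gene above the floor in the 9 gene lists (vertical axis), with 7 of the 8 genes, all but Mpzl2, as large points and dashed lines at the 2-fold threshold. In the lists that hold 1 of the 8 genes, the other genes mostly lie between the dashed lines, and the exceptions on the low side are Unc13d at -2.07 and Emcn at -2.52.

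Relatives and partners of 7 of the 8 genes, all but Mpzl2, were compared at 24 h, with the C/EBP family and luteal genes. Over 9 lists, with the 8 genes left out, 77 genes were above the floor. Of these, 9 were lower and 5 higher in the knockout, 11.7% and 6.49%, with a median of -0.03. Over all genes above the floor, 3.92% were lower and 3.13% higher. Of the 9 lower list genes, Cebpa and Cebpb are the deleted genes and 5 belong to the luteal list. The lists were drawn up with earlier results of these data known.

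Among neprilysin relatives, 5 above the floor, none was lower, and Phex, an endopeptidase of bone phosphate control, was higher at 88 in the knockout and 37 in wild type. Mme, neprilysin itself, read 28 in the knockout and 36 in wild type at 24 h. Of 5 SLC12 transporters other than Slc12a8, none was called at 24 h. Slc12a7, a potassium-chloride cotransporter, read 1843 in the knockout and 1635 in wild type at 24 h, and was higher than at 8 h in both genotypes, 6.21-fold in the knockout and 5.64-fold in wild type.

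Of 7 genes above the floor in the Rab27 list, Unc13d alone was lower at 24 h. It encodes Munc13-4, an effector that Rab27a recruits to secretory vesicles, and read 36, 27 and 45 in the knockout at 4, 8 and 24 h, and 42 and 189 in wild type at 8 and 24 h, a 4.20-fold deficit at 24 h. Munc13-4 is best known from blood cells, whose marker sums are given above. Rph3al, another effector, read 493 in the knockout and 251 in wild type at 24 h, a log2 difference of 0.97 that missed the threshold, and Rab27b, the closest relative, 47 in the knockout and 34 in wild type.

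In the phosphoinositide 3-kinase list, 3 of 10 genes were higher at 24 h and none lower. The regulatory subunit genes Pik3r1, at 1349 in the knockout and 490 in wild type, and Pik3r3, at 248 in the knockout and 112 in wild type, were 2.75-fold and 2.21-fold higher. Pik3cg, at 30 in the knockout and 14 in wild type, was at least 1.36-fold higher. The class II relative Pik3c2a read 568 in the knockout and 466 in wild type, a log2 difference of 0.29.

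Around Parvb, the list of integrin-linked kinase, PINCH, parvin and adhesion genes had 13 genes above the floor, of which Itgb3, the beta-3 integrin, was higher at 1245 in the knockout and 424 in wild type, and none was lower. Parva, the closest relative, read 380 in the knockout and 388 in wild type at 24 h, and Ilk 771 in the knockout and 1099 in wild type. Their differences were -0.03 and -0.51.

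Of 12 genes of myosin phosphatase and its regulators above the floor, none was called at 24 h and the median was 0.27. Ppp1r14b, a relative of Ppp1r14a, read 2749 in the knockout and 2687 in wild type. At 8 h, 3 of the 12 were lower in the knockout together with Ppp1r14a, namely Myl9, the smooth muscle myosin light chain (129 in the knockout and 784 in wild type), Mylk, its kinase (390 in the knockout and 1098 in wild type), and Ppp1r12b, a myosin phosphatase targeting subunit (76 in the knockout and 189 in wild type). By 24 h Myl9 read 553 in the knockout and 318 in wild type and Mylk 354 in the knockout and 317 in wild type. These smooth muscle genes were lower in wild type at 24 h than at 8 h, Myl9 2.47-fold and Mylk 3.46-fold, and Ppp1r14a was 4.75-fold higher. Over the same hours in the knockout, Myl9 was 4.29-fold higher, and Mylk and Ppp1r14a were not called. The part of smooth muscle in these changes was not tested.

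Among mucin-like glycoproteins other than Parm1, Emcn, an endothelial sialomucin, was the 1 of 6 that was lower at 24 h, at 34 in the knockout and 195 in wild type. Emcn is also 1 of the endothelial markers above. Of 14 luteal and steroidogenic genes, 5 were lower at 24 h and none higher, with a median of -0.62. They were Bhmt, a methyltransferase of methionine synthesis, at 94 in the knockout and 8343 in wild type, Abcb1b with the values above, Ptgfr, the prostaglandin F receptor gene, Star, the mitochondrial cholesterol carrier gene, and Hsd17b7, a steroid and cholesterol synthesis enzyme. Ptgfr read 182 in the knockout and 920 in wild type, Star 327 in the knockout and 1259 in wild type, and Hsd17b7 920 in the knockout and 2766 in wild type. From 8 to 24 h Ptgfr rose at least 8.27-fold in the knockout and 4.36-fold in wild type. Its deficit was at least 9.59-fold at 8 h and 5.05-fold at 24 h. Cyp11a1, which makes pregnenolone from cholesterol, read 12292 in the knockout and 19408 in wild type at 24 h, a log2 difference of -0.66, short of the threshold. Bhmt rose between 8 and 24 h by 1.31 in the knockout and 6.49 in wild type on the log2 scale, while Star was lower at 24 h than at 8 h in both genotypes, 22.7-fold in the knockout and 7.33-fold in wild type.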

How the data were processed

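RNA of ovarian granulosa cells was measured on Affymetrix 3' arrays, 1 per group. RNA was isolated on RNeasy columns and biotin-labelled, per the labels' protocols. The authors' deposited values are whole-number intensities, and affy and RMA are the tools listed in the submitters' processing notes, without a version. RMA usually returns log2 values, whereas these whole numbers are linear, and their log2 was used here. The 4 h knockout array has a different scale from the others.

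Of 45101 probe sets, 34958 had 1 symbol in the platform annotation, and symbols were updated through Entrez identifiers from RefSeq (34754 matched). A gene was its probe set of the highest mean log2 value, which gave 18194 genes. Calls required a 2-fold difference and 1 value at or above 22. Groups came from the titles. The 8 genes, the lists and the rules were chosen with earlier results of these data known. The genes named are the 8, the deleted genes, list genes past the threshold at 24 h, nearest relatives, genes of nearest profile, and, chosen after their values were seen, list genes given for comparison. Alternatives were other folds, floors, scalings and probe set choices. The calling step was tested on simulated data in which the changed genes stood well above the floor. Changes next to the floor were not covered. Python 3.11.15, pandas 2.3.3 and numpy 2.4.6 were used. The number of arrays limits the precision. Genes without their own symbol on the array were not analysed here, and 1 gene list is not reported here.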

Additional observations from a re-analysis of the deposited data

Results flagged for a closer look

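None of the 8 genes changed in opposite directions in the genotypes once low values were set to the floor. Among the deleted genes and the relatives, partners and luteal genes called at 24 h, the following did, and none of these differences was tested, because each group is 1 array. Marker genes of other cell types, and list genes not called at 24 h, were not examined in this way. The change from 8 h to 24 h was upward in the knockout and downward in wild type for Cebpa (knockout change minus wild-type change 1.75 on the log2 scale, with knockout values at or near the floor), Phex (1.02), Pik3r3 (1.61) and Itgb3 (1.37). With low values set to the floor, Cebpa, Phex, Pik3r3 and Itgb3 changed less than 2-fold in both genotypes. Larger opposite changes were seen among list genes not called at 24 h. Myl9 was 4.29-fold higher at 24 h than at 8 h in the knockout and 2.47-fold lower in wild type. Akr1c18, of the luteal list, was 2.73-fold higher in the knockout and 2.49-fold lower in wild type. The Phex rise in the knockout, 0.35, was below the SD between probe sets for that comparison, 0.37. Pik3r3 was also below wild type in the knockout at 8 h, at 129 in the knockout and 178 in wild type, and above it at 24 h, by 1.15 on the log2 scale.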

How the results depend on the processing

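The count of the 8 genes lower in the knockout at 24 h was 8, and that of genes rising in wild type 7, under each of the 8 alternatives for calls (folds of 1.5 and 3, floor at the 50th percentile, no floor, mean of probe sets, median centring, quantile normalization, and no less specific probe sets). At 8 h, 7 of them were lower at 1.5-fold, 1 at 3-fold and 1 with the floor at the 50th percentile, in place of 2, and 3 with the mean of probe sets. In the knockout over time, 1 rose at 3-fold in place of 3, and 2 with the floor at the 50th percentile or the mean of probe sets. Over all genes, at 1.5-fold and at 3-fold, 1347 and 184 were lower at 24 h, 1084 and 207 lower at 8 h, 1789 and 247 higher over time in wild type, and 2156 and 249 in the knockout. The median log2 level of the 8 genes in the knockout at 4 h was 5.23 as deposited and 4.55 after quantile normalization. Of 160 log2 differences of the 8 genes under 5 alternatives, 144 moved by no more than the spread between probe sets, 16 moved by more and 0 of the called ones changed sign. Many of the 144 could not move. No representing probe set is a less specific one, so those 32 values were unchanged. Median centring shifts all genes alike, and Mmel1, Pik3c2g and Ppp1r14a have 1 probe set each, which the mean leaves as it is. The total of 144 is thus no measure of robustness. Of the 16, 12 came with the mean of probe sets. It gave Rab27a a knockout change of 0.57 in place of 2.45, below the threshold, and a wild-type rise of 2.92 in place of 4.74, and at 24 h it gave -2.45 for Parvb and -2.67 for Mpzl2. The cause was not tested. No paired analysis was possible because each group has 1 array. Intensities near 22 are rounded whole numbers close to background, so folds there are coarse.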
